A study of Mus musculus with 4 samples.

Results

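Mitosis and spindle genes were examined as a set of 45 genes, taken by gene name from a list of cyclins, mitotic kinases, checkpoint and kinetochore genes, kinesins, condensins and cytokinesis genes. All 45 were found among the 20308 genes of the deposited tables, and all 45 passed the filter on low counts that left 15097 genes for testing. The rule uses gene names alone, but the list was proposed with earlier results of these data known. The RNA came from microglia, the resident macrophages of the brain, isolated from mice at postnatal day 11 in a study of the immune receptor PD-1 in microglia and of vessel pruning. One pair of libraries had the genotype Pd1fl/fl, in which the PD-1 gene Pdcd1 carries recombination sites on both copies (2 libraries). The other pair was labelled Pd1cKO-Cx3, for a conditional knockout of Pdcd1 (2 libraries). The labels do not spell out what "Cx3" stands for or whether the controls carried it. They do not say either whether replicates were separate animals. The replicates are numbered 1 and 2 in Pd1fl/fl and 2 and 3 in the pair labelled Pd1cKO-Cx3, and values are given in that order throughout. "Pair" stands for the 2 libraries of a group, with no matching across groups.

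Cells enter mitosis when cyclin-dependent kinase 1, paired with A- and B-type cyclins, becomes active. Condensins and topoisomerase then compact the chromosomes, kinesins and kinetochores attach them to the spindle, and a checkpoint holds the anaphase-promoting complex until every chromosome is attached. Most genes for these proteins are switched on together late in the cell cycle and are low in resting cells. Their RNA in a bulk sample therefore tends to follow how many cells are dividing, which need not hold for every gene of the set. In the early postnatal mouse brain, microglia are known to expand by local division. In bulk RNA a larger share of dividing cells and more of this RNA in each dividing cell cannot be told apart.

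The 4 libraries held 14258420 to 15908954 counts. Before the results, the checks of the labels have to be stated, because 1 library stands apart and the targeted gene goes against them. For Pdcd1 the Pd1fl/fl pair showed 0 and 43 counts, against 179 and 154 in the pair labelled Pd1cKO-Cx3. Every direction below follows the labels, and these counts show no loss of the transcript in the pair labelled as its knockout. The microglial gene Cx3cr1 had 182547 and 152471 counts in the Pd1fl/fl pair against 66410 and 66600 in the pair labelled Pd1cKO-Cx3. The labels do not say whether it is the gene meant by Cx3, and the cause of its difference was not tested. Xist, the RNA of the inactive X chromosome, was counted 13374 times in Pd1fl/fl replicate 1 and 0 times elsewhere. The Y-linked Ddx3y was at 0 in that library and at 1891 to 2064 counts in the other 3. The 2 controls were therefore not repeats of the same RNA, while for the other group the spread behind the p-values may be technical. That library, with the female pattern, is also the one with the lowest level of most mitosis genes, as described next. The defining microglial genes were all present, and the sum over 10 of them was 60836 and 58939 CPM (reads of a gene per 1000000 of the library total) in the Pd1fl/fl pair against 49498 and 46827 CPM in the pair labelled Pd1cKO-Cx3. For 5 of the 10 both libraries of the pair labelled Pd1cKO-Cx3 lay below both controls (18.8% of the genes tested did). edgeR called 1 of the 10 lower, where it called 3 of all 15097 genes tested lower. DESeq2 called 3 of the 10 lower, where it called 55 of the 15097 lower. Mitochondrial genes took 1.23% and 1.02% of all reads in the Pd1fl/fl pair against 1.48% and 1.60% in the pair labelled Pd1cKO-Cx3, and their part in the results was not tested.

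Transcripts of the mitotic machinery were more abundant in the pair labelled Pd1cKO-Cx3, but no single gene passed edgeR's test across all genes, DESeq2 called 1, Kif20b, and the controls differed from each other by nearly as much. The 45 genes together took 1523 and 2155 CPM of the Pd1fl/fl pair against 2543 and 2906 CPM of the pair labelled Pd1cKO-Cx3. The levels of the 2 groups in this sum did not overlap. All 45 genes had a positive log2 fold change (libraries labelled Pd1cKO-Cx3 over Pd1fl/fl), against 50.7% of the genes tested, and the median was 0.55 with a range from 0.01 to 1.64, against a median of 0.01 over all genes tested. With upper-quartile factors, or with genes kept from 5 CPM in 2 libraries, 44 were positive and Hmmr was just below 0. For 30 of the 45 (66.7%), both libraries of the pair labelled Pd1cKO-Cx3 lay above both controls, which 21.3% of the genes tested did. For the other 15 the groups overlapped, and for 0 genes did both lie below, which 18.8% of the genes tested did.

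In edgeR's quasi-likelihood test with Benjamini-Hochberg adjustment over all genes, 0 of the 45 passed 0.05, where 6 of 15097 genes (0.0397%) did. The adjusted p-values ran from 0.358 to 0.997. At an unadjusted p under 0.05, 14 genes were higher and 0 lower, beside 4.97% and 3.12% of the genes tested. DESeq2, run as an alternative on the same genes, called 1 member, Kif20b (adjusted p = 0.00517), beside 1.19% of the genes tested that it called higher. That count of 14 was 6 without Pd1fl/fl replicate 1 (6.59% of all genes in that setting) and 25 without Pd1fl/fl replicate 2 (7.43%). Leaving out replicate 2 or replicate 3 of the pair labelled Pd1cKO-Cx3 gave 13 (3.19%) and 2 (1.92%). For 36 of the 45 the 95% interval of the fold change still held a 2-fold rise, so a missed threshold does not show equal levels. For the remaining 9 it ended below 2-fold.

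**Figure D1:**
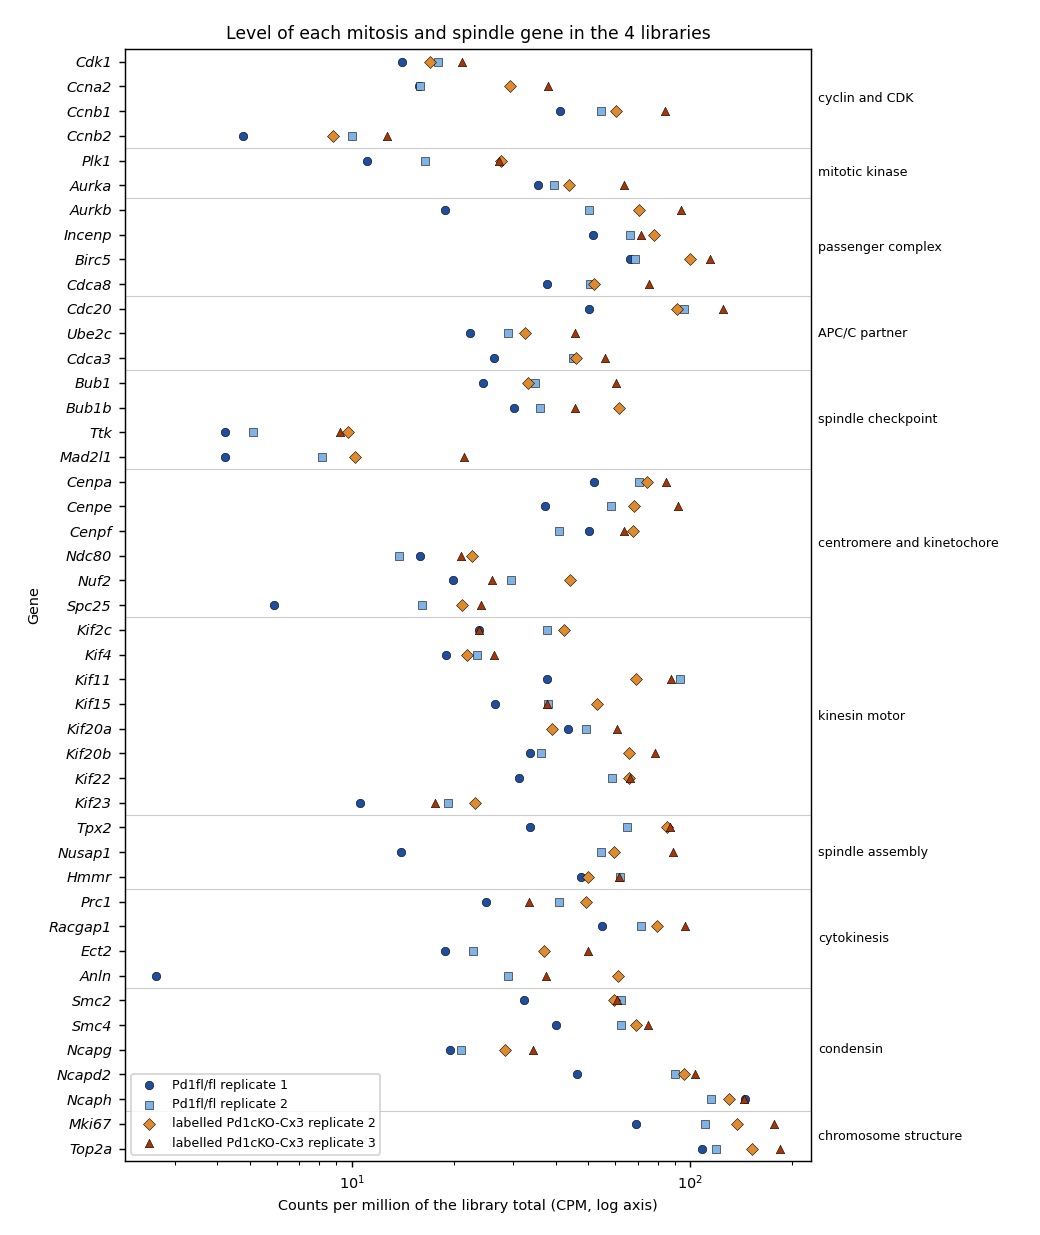
CPM (log axis) of each of the 45 genes in the 4 libraries, grouped by role, 1 point per library. The dark circle of Pd1fl/fl replicate 1 is the leftmost point for 41 of the 45 genes, and both libraries labelled Pd1cKO-Cx3 lie to the right of both controls for 30.

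The spread within the groups was large and ran in 1 direction for most of the genes. Pd1fl/fl replicate 1 had the lowest value of the 4 libraries for 41 of the 45 genes, which held for 28.2% of the genes tested. The library labelled Pd1cKO-Cx3 replicate 3 had the highest value for 29 of them and the library labelled Pd1cKO-Cx3 replicate 2 for 12, against 27.8% and 20.6% of the genes tested. On the scale of log2(CPM + 0.5), Pd1fl/fl replicate 2 lay above replicate 1 for 42 genes, with a median difference of 0.50. Within the other group, replicate 3 lay above replicate 2 for 33 genes, with a median difference of 0.26. The 4 differences between a library of each group had medians of 0.86 and 0.22 for replicate 2 labelled Pd1cKO-Cx3 over Pd1fl/fl replicates 1 and 2, and 0.99 and 0.42 for replicate 3. These comparisons share libraries and are not independent. The gap between the 2 controls was therefore wider than the gap between the higher control and the lower of the pair labelled Pd1cKO-Cx3. For 25 of the 45 genes the log2 fold change between the groups was smaller than the log2 difference between the 2 controls, and for 13 it was smaller than the difference between the pair labelled Pd1cKO-Cx3. The median log2 fold change was 0.40 without Pd1fl/fl replicate 1 and 0.84 without Pd1fl/fl replicate 2, and 0.68 and 0.50 when replicate 2 or replicate 3 of the pair labelled Pd1cKO-Cx3 was left out. Leaving out Pd1fl/fl replicate 1 also leaves only libraries with Ddx3y counts, and 41 of 45 genes then kept a positive value. That setting rests on 1 control library. The female pattern occurs in 1 library only, so sex and that library cannot be told apart, and the part of sex was not tested.

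**Figure D2:**
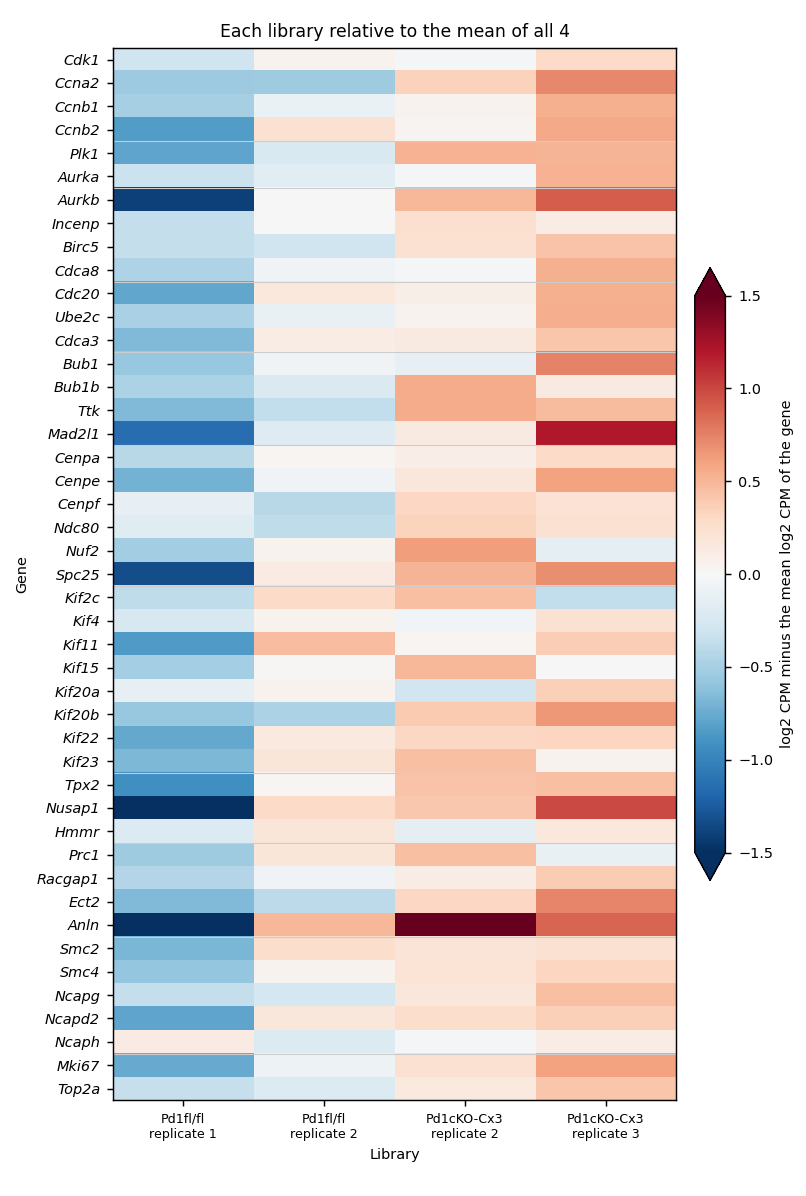
Log2 CPM of each gene in each library minus the mean log2 CPM of that gene over the 4 libraries, with colours cut at 1.5 in each direction. The left column, Pd1fl/fl replicate 1, is blue for nearly every gene, with Anln and Nusap1 beyond the colour range, while Ncaph is slightly red there.

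The authors' deposited tables compare 1 library with 1 other and mark a gene where their p is under 0.05 and the absolute log2 fold change is over 1. In the authors' deposited table of the library labelled Pd1cKO-Cx3 replicate 2 over Pd1fl/fl replicate 1, 14 of the 45 genes were marked higher, beside 18.9% of all genes listed there. The authors' deposited table of replicate 3 over Pd1fl/fl replicate 1 marked 22, beside 18.3%. Against Pd1fl/fl replicate 2, the authors' deposited tables marked 1 gene, Anln, for replicate 2 and 4 genes, Ccna2, Ect2, Kif20b and Mad2l1, for replicate 3, beside 17.2% and 16.6% of the genes listed. None of the 45 was marked lower in any of the authors' deposited tables, where 10.4% to 15.0% of all genes were. The tables share libraries, and their marks rest on single libraries without replicates. The share of marked mitosis genes was above that of all genes against Pd1fl/fl replicate 1 and below it against Pd1fl/fl replicate 2.

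What the genes share besides their function can be read in their promoters. Late cell cycle genes are known to carry a cell cycle genes homology region, which the MuvB protein complex binds, and CCAAT boxes, which the factor NF-Y binds. RefSeq promoter windows (build GRCm38.p6) that ran from 250 bases before to 50 bases after a transcription start were given for 39 of the 45 genes, in 41 windows. The homology region was searched as TTTGAA or TTCGAA and the box as CCAAT, each on both strands, with matches allowed to overlap. At least 1 homology region match stood in 34 of the 41 windows (82.9%), against 14.1% of the windows of genes tested and 19.2% of all 32851 windows. Within 50 bases of the start it stood in 31 (75.6%), against 3.67% of the windows of genes tested. A CCAAT match stood in 31 windows (75.6%, against 37.9%), and 2 or more in 21 (51.2%, against 14.1%). The share with a homology region match was 80.8% of 26 windows for genes whose groups did not overlap and 86.7% of 15 windows for the others. A match is a description of letters and not a shown binding site.

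The windows below are those of the 5 genes with the smallest edgeR p among the genes with a window within 500 bases of the deposited gene start, and of Hmmr, the gene with the largest p. They are printed because they show the letters that most of these genes share, and that Hmmr, whose level hardly differed between the groups, carries as well. Capitals mark homology region and CCAAT matches on either strand, and each runs from 5′ to 3′ along the strand of its gene.
Kif20b (chr19:34922108-34922407, plus strand): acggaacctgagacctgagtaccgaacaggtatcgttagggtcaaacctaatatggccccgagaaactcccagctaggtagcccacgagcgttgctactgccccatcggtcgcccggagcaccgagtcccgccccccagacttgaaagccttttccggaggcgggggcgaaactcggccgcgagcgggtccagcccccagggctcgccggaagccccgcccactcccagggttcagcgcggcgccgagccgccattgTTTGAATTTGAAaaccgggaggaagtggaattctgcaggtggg
Birc5 (chr11:117848987-117849286, plus strand): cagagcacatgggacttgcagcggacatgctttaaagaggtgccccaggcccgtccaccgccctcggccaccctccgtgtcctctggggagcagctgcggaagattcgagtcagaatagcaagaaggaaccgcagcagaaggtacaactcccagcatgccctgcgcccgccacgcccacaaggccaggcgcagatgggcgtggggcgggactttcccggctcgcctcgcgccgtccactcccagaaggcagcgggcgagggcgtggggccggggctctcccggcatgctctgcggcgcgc
Ect2 (chr3:27153829-27154128, minus strand): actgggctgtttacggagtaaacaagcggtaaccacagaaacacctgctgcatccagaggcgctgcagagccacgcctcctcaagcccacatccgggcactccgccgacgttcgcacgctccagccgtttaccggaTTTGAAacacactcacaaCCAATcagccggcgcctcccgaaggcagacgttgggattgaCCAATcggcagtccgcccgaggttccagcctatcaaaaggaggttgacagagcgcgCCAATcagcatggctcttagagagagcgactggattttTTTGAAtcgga
Top2a (chr11:99024140-99024439, minus strand): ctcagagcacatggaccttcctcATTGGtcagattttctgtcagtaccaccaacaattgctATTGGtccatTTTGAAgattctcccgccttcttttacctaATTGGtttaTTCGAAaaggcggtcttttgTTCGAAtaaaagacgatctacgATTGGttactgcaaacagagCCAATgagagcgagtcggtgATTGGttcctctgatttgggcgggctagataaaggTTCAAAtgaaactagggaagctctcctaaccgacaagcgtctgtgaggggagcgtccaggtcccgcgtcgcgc
Plk1 (chr7:122159185-122159484, plus strand): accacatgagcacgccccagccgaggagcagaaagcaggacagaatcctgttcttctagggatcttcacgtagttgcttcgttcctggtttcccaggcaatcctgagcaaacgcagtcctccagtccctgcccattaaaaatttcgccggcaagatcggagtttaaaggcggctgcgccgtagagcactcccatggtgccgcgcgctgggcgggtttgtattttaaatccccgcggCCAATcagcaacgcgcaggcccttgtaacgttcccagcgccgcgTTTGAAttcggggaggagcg
Hmmr (chr11:40733388-40733687, minus strand): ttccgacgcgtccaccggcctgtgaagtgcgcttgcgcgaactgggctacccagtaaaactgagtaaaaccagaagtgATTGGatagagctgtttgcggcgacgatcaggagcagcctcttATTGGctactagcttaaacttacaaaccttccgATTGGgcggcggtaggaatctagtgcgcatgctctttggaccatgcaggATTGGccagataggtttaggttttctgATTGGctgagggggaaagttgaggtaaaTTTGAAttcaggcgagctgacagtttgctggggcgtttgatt

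Kif20b, Plk1 and Hmmr each held a homology region match just after the start, and Top2a held 4 such matches and 6 CCAAT matches. Birc5 held neither motif in its window.

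Among the cyclins and their kinase, 2 of 4 genes had groups without overlap. Ccna2 (ENSMUSG00000027715, chromosome 3, 36564865 to 36572150), the A-type cyclin of S phase and early mitosis, had 15.8 and 15.95 CPM in the Pd1fl/fl pair against 29.3 and 38.03 CPM in the pair labelled Pd1cKO-Cx3. Both controls were low and nearly equal, and the log2 fold change was 1.08 ± 0.26 (SE, adjusted p by edgeR = 0.482). Its exons share bases with those of Exosc9 on the opposite strand, and the sources do not say whether strand was used in counting. Ccnb1, the main cyclin of mitotic entry, had 41.3, 54.3, 60.3 and 84.3 CPM, and the log2 fold change came to 0.59 ± 0.25 (SE, adjusted p by edgeR = 0.643). Ccnb2 had 4.78, 10.03, 8.77 and 12.7 CPM and Cdk1 14.1, 17.97, 16.97 and 21.2 CPM, and in both the groups overlapped. Cdk1, the kinase that all these cyclins activate, had a fold change of 0.24 on the log2 scale, the smallest of the 4. RefSeq lists pseudogene copies of Ccnb1 and Ccnb2, with 8 to 16 and 34 to 49 counts per library in the tables. How many reads were assigned to the wrong copy was not tested, so the values of both genes are uncertain.

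The mitotic kinases Plk1 and Aurka both lay higher without overlap. Plk1 (chromosome 7, 122159439 to 122169873), which drives mitotic entry and centrosome maturation, had 11.1 and 16.4 CPM in the Pd1fl/fl pair against 27.6 and 27.3 CPM in the pair labelled Pd1cKO-Cx3. That is 13.7 ± 3.70 against 27.5 ± 0.226 CPM (SD, n = 2), and the log2 fold change came to 0.99 ± 0.30 (SE, adjusted p by edgeR = 0.542). Aurka, the kinase of the spindle poles, had 35.5, 39.6, 43.7 and 63.6 CPM, with most of its difference in replicate 3 labelled Pd1cKO-Cx3 (0.51 ± 0.25, SE, adjusted p by edgeR = 0.692).

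All 4 subunits of the chromosomal passenger complex, which corrects faulty attachments and guides the cleavage furrow, were higher without overlap. Birc5 (chromosome 11, 117849251 to 117855743), which encodes survivin, had 66.3 and 68.7 CPM in the Pd1fl/fl pair against 99.6 and 114 CPM in the pair labelled Pd1cKO-Cx3, and the log2 fold change came to 0.65 ± 0.16 (SE, adjusted p by edgeR = 0.464). Its groups were separated by more than the gap within either. Aurkb, the kinase of the complex, had 18.9, 50.3, 70.4 and 93.6 CPM, so the 2 controls lay 2.66-fold apart. Its log2 fold change of 1.24 ± 0.46 (SE, adjusted p by edgeR = 0.587) was 0.69 without Pd1fl/fl replicate 1 and 2.11 without Pd1fl/fl replicate 2. The borealin gene Cdca8 and the scaffold gene Incenp had fold changes of 0.52 and 0.34 on the log2 scale.

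Of the partners of the anaphase-promoting complex, which ends mitosis by marking cyclins and securin for destruction, 2 of 3 had groups without overlap. Cdc20, its activator, had 50.1 and 95.7 CPM in the Pd1fl/fl pair against 91.5 and 125 CPM in the pair labelled Pd1cKO-Cx3, so Pd1fl/fl replicate 2 lay above 1 library of the other group. It shares 53 exon bases with Elovl1 on the opposite strand. Per kilobase of merged exons it had the highest level of the 45, 39.0 CPM in the mean of the Pd1fl/fl pair and 57.9 CPM in that of the pair labelled Pd1cKO-Cx3. Ube2c, the ubiquitin-conjugating enzyme of the complex, had 22.4, 29.0, 32.5 and 45.6 CPM (log2 fold change 0.60 ± 0.28, SE, adjusted p by edgeR = 0.678). Cdca3, one of the proteins the complex destroys, had 26.3, 44.97, 45.9 and 55.9 CPM, so the lower library labelled Pd1cKO-Cx3 lay just above the higher control.

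The spindle checkpoint genes, whose products hold back Cdc20 until attachment is complete, had a median log2 fold change of 0.85, the highest of the 11 role groups, and 3 of 4 had no overlap. Mad2l1, which encodes the Cdc20 inhibitor Mad2, had 4.21 and 8.15 CPM in the Pd1fl/fl pair against 10.2 and 21.4 CPM in the pair labelled Pd1cKO-Cx3. The pairs did not overlap, but both were spread widely (log2 fold change 1.35 ± 0.54, SE, adjusted p by edgeR = 0.617). Bub1b, which encodes the checkpoint kinase-like protein BubR1, had 30.0, 35.9, 61.4 and 45.7 CPM (0.69 ± 0.24, SE, adjusted p by edgeR = 0.559), and here replicate 2 labelled Pd1cKO-Cx3 was the highest. Ttk, the kinase that starts checkpoint signalling, had 4.21 and 5.12 CPM against 9.75 and 9.23 CPM, with little spread in either group. Bub1, the remaining kinase, had 24.5, 34.8, 33.2 and 60.4 CPM, and the groups overlapped.

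At the centromere and kinetochore, the sites where chromosomes meet the spindle, 5 of 6 genes had no overlap, with log2 fold changes from 0.36 to 1.03. Cenpf, an outer kinetochore and nuclear protein gene, had 50.03 and 41 CPM in the Pd1fl/fl pair against 67.7 and 63.5 CPM in the pair labelled Pd1cKO-Cx3 (0.52 ± 0.19, SE, adjusted p by edgeR = 0.589). It is 1 of 3 genes, with Ndc80 and Ncaph, in which Pd1fl/fl replicate 1 lay above replicate 2. Cenpe, a motor that carries chromosomes to the spindle equator, had 37.3, 58.4, 68.2 and 92.1 CPM (0.74 ± 0.28, SE, adjusted p by edgeR = 0.599). Cenpa, the histone H3 variant that marks centromeres, had 52.0, 70.6, 74.3 and 84.6 CPM (0.36 ± 0.21, SE, adjusted p by edgeR = 0.754). The 3 genes of the microtubule-binding Ndc80 complex were unlike. Ndc80 had 15.9 and 13.8 CPM against 22.7 and 20.99 CPM, and Spc25 had 5.91 and 16.1 CPM against 21.2 and 24.0 CPM. Nuf2, their partner, had 19.9 and 29.6 CPM against 44.1 and 25.9 CPM, with overlap.

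The kinesin motors had the smallest median of the role groups, 0.34, and 6 of 8 overlapped between the groups. Kif20b (ENSMUSG00000024795, chromosome 19, 34922361 to 34975745), a kinesin that acts in cytokinesis, and Kif22 were the exceptions, and Kif20b had the smallest p of the 45 genes. It had 33.7 and 36.1 CPM in the Pd1fl/fl pair against 65.7 and 78.6 CPM in the pair labelled Pd1cKO-Cx3, that is 34.9 ± 1.69 against 72.2 ± 9.14 CPM (SD, n = 2). The log2 fold change was 1.04 ± 0.20 (SE, 95% interval 0.55 to 1.53, edgeR adjusted p = 0.358) and lay between 0.91 and 1.17 when any 1 library was left out. Kif20a, a relative that brings the passenger complex to the spindle midzone, had 43.6 and 49.1 CPM against 38.9 and 60.8 CPM and a fold change of 0.10 on the log2 scale. Kif22, a motor on chromosome arms, had 31.1 and 58.7 CPM against 65.9 and 66.2 CPM, with no overlap (0.55 ± 0.32, SE, adjusted p by edgeR = 0.756). Kif11, which pushes the spindle poles apart, had 37.7 and 93.5 CPM in the Pd1fl/fl pair against 69.1 and 87.7 CPM in the pair labelled Pd1cKO-Cx3. For Kif11 the 2 controls held both the lowest and the highest value, and the log2 fold change of 0.25 turned to -0.27 without Pd1fl/fl replicate 1. Kif2c, which takes microtubules apart, turned from 0.10 to -0.20 in the same setting. Kif15 and Kif23 had fold changes of 0.49 and 0.44, and the X-linked Kif4 had 0.18 with 18.98, 23.4, 21.95 and 26.3 CPM. Kif4 and Kif22 have pseudogene copies in RefSeq, and Kif4 and Kif20a share exon bases with Pdzd11 and Cdc23 on the opposite strand.

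**Figure D3:**
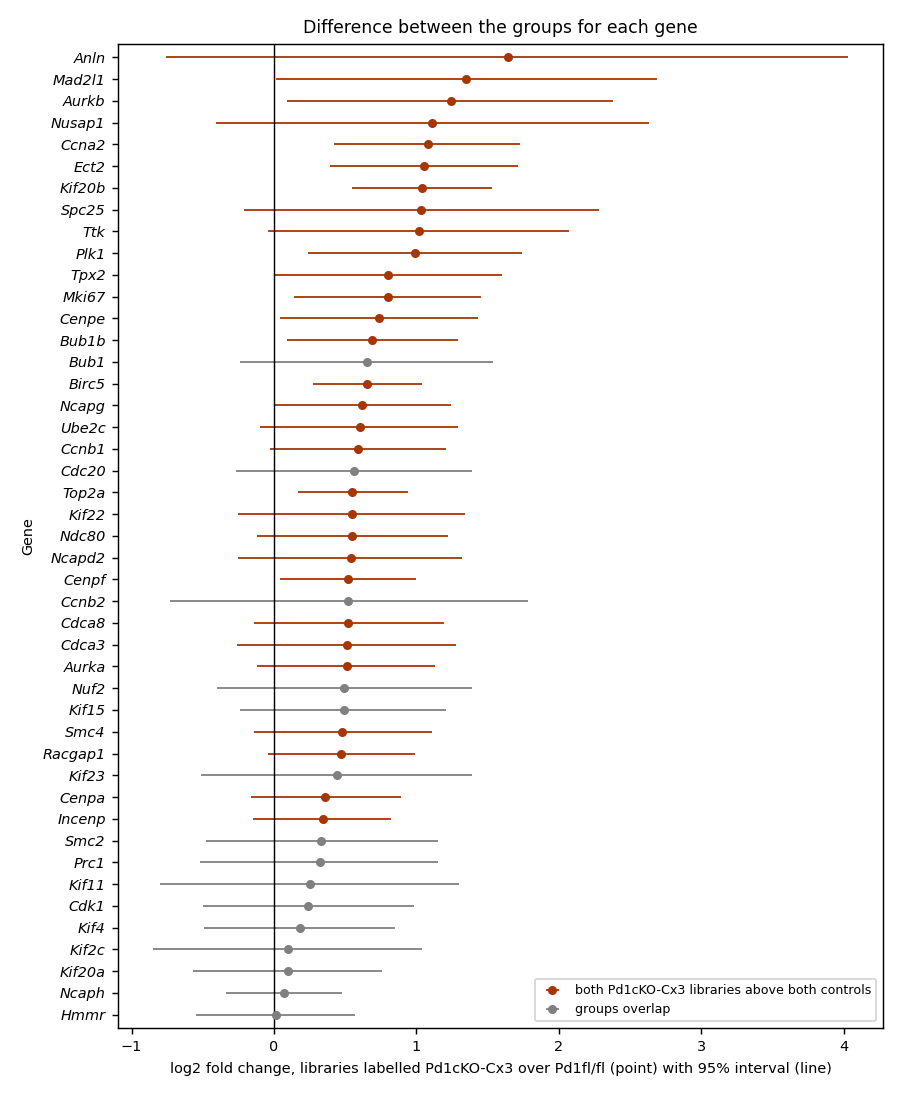
Log2 fold change of each gene (point) with its 95% interval from edgeR (line), sorted by size. All 45 points lie to the right of 0 (Hmmr falls below it with upper-quartile factors), and 14 of the intervals do so too. The 15 genes whose groups overlap lie mostly at the lower end, with Hmmr at 0.01 and Ncaph at 0.07.

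Among the spindle assembly genes, Tpx2 and Nusap1 had groups without overlap and Hmmr did not. Tpx2, which activates Aurora A and seeds microtubules near chromosomes, had 33.6 and 64.9 CPM in the Pd1fl/fl pair against 85.6 and 86.8 CPM in the pair labelled Pd1cKO-Cx3 (log2 fold change 0.80 ± 0.32, SE, adjusted p by edgeR = 0.617). Nusap1, a microtubule bundling protein gene, had 13.95 and 54.4 CPM against 59.3 and 88.7 CPM. Its controls lay 3.90-fold apart, more than the groups did, and the log2 fold change of 1.11 ± 0.61 (SE, adjusted p by edgeR = 0.740) was 0.43 without Pd1fl/fl replicate 1 and 2.40 without Pd1fl/fl replicate 2. Hmmr, a spindle pole protein gene, had 47.6, 62.1, 49.7 and 61.4 CPM. Its log2 fold change was 0.01 ± 0.23 (SE, 95% interval -0.55 to 0.57), with a fold between 0.683 and 1.48.

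Of the cytokinesis genes, which split the cell after the chromosomes part, 3 of 4 had no overlap. Ect2 (chromosome 3, 27097222 to 27153878), which acts at the cleavage plane, had 18.9 and 22.8 CPM in the Pd1fl/fl pair against 37.0 and 49.7 CPM in the pair labelled Pd1cKO-Cx3 (1.05 ± 0.26, SE, adjusted p by edgeR = 0.4999). Racgap1, its partner in the central spindle, had 54.7, 71.5, 79.7 and 96.4 CPM (0.47 ± 0.21, SE, adjusted p by edgeR = 0.651). Anln, which encodes the ring scaffold anillin, had the largest fold change of the 45, 1.64 ± 0.97 (SE, adjusted p by edgeR = 0.756), and it rests on 1 library. Its counts were 42 in Pd1fl/fl replicate 1 and 429 in replicate 2, against 870 and 580 in the pair labelled Pd1cKO-Cx3, so the controls lay 10.9-fold apart. Without Pd1fl/fl replicate 1 its log2 fold change was 0.76. Exon bases are shared with a gene on the opposite strand by Prc1, Nusap1, Cdca8 and Ube2c too, with Rccd1, Oip5, 9930104L06Rik and Tnnc2. Prc1, which bundles microtubules at the midzone, had 24.9, 40.9, 49.2 and 33.3 CPM, and the groups overlapped.

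The condensin subunits, which together form 1 ring complex that compacts chromosomes, differed in level and in how the libraries ordered. Ncapg had 19.55 and 21 CPM in the Pd1fl/fl pair against 28.3 and 34.3 CPM in the pair labelled Pd1cKO-Cx3 (0.62 ± 0.25, SE, adjusted p by edgeR = 0.617). Its exons share bases with Lcorl on the opposite strand, which had 1009 to 1302 counts per library. Smc4, an ATPase of the ring, had 40.2, 62.5, 69.2 and 75.03 CPM (0.48 ± 0.25, SE, adjusted p by edgeR = 0.719), and Ncapd2 had 46.4, 89.8, 96.01 and 103 CPM. For Smc2, the other ATPase, Pd1fl/fl replicate 2 (62.5 CPM) lay above both libraries of the pair labelled Pd1cKO-Cx3 (59.5 and 60.7 CPM). Ncaph, the subunit that closes the ring, had 145 and 115 CPM in the Pd1fl/fl pair against 130.4 and 144 CPM in the pair labelled Pd1cKO-Cx3, and it is the 1 gene with its highest value in Pd1fl/fl replicate 1. Per kilobase of merged exons Ncaph had 30.2 and 31.9 CPM in the 2 groups, while the other 4 subunits had 2.87 to 10.9 CPM in the Pd1fl/fl pair against 4.43 to 15.9 CPM in the pair labelled Pd1cKO-Cx3. Its log2 fold change was 0.07 ± 0.17 (SE, 95% interval -0.34 to 0.48, edgeR adjusted p = 0.973).

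The 2 chromosome structure genes are the common markers of dividing cells, and both had no overlap. Mki67 (chromosome 7, 135689784 to 135716361), which coats mitotic chromosomes, had 69.1 and 110.5 CPM in the Pd1fl/fl pair against 137 and 177 CPM in the pair labelled Pd1cKO-Cx3, that is 89.8 ± 29.2 against 157 ± 28.6 CPM (SD, n = 2). Its log2 fold change was 0.80 ± 0.26 (SE, adjusted p by edgeR = 0.542). Top2a (chromosome 11, 98992943 to 99024189), which untangles sister chromatids, had the highest CPM of the 45 genes in the mean over the libraries, with 108, 119, 152 and 184 CPM (0.55 ± 0.16, SE, adjusted p by edgeR = 0.531). For Top2a the 2 controls lay 1.10-fold apart.

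A second list held 129 other mitosis genes, from the transcription factor Foxm1 to cohesins, further kinetochore proteins and subunits of the anaphase-promoting complex. All 129 were tested, 0 passed edgeR or DESeq2 over all genes, 96 had a positive log2 fold change, and the median was 0.32 with quartiles of -0.0036 and 0.56. At an unadjusted p under 0.05 edgeR had 7 of the 129 higher and 1 lower, beside 4.97% and 3.12% of the genes tested. For 43 (33.3%) both libraries of the pair labelled Pd1cKO-Cx3 lay above both controls and for 7 (5.43%) below, beside 21.3% and 18.8% of the genes tested. Trip13, an ATPase that recycles Mad2, had 3.77 and 4.11 CPM in the Pd1fl/fl pair against 13.3 and 12.01 CPM in the pair labelled Pd1cKO-Cx3 (1.67 ± 0.40, SE, adjusted p by edgeR = 0.464). Ccnf, a cyclin-like part of a ubiquitin ligase, had 19.9, 35.4, 55.5 and 61.9 CPM, and Cdc16, a subunit of the anaphase-promoting complex, had 44.1, 40.6, 77.6 and 62.9 CPM. Another subunit, Anapc13, lay the other way, with 16.3 and 14.1 CPM against 6.45 and 8.46 CPM (-1.03 ± 0.35, SE, adjusted p by edgeR = 0.542). Tubgcp2, of the microtubule-nucleating gamma-tubulin complex, and Haus2, of the augmin complex, had fold changes of -0.42 and -0.73 on the log2 scale. The median of this list was 0.11 without Pd1fl/fl replicate 1 and 0.19 when replicate 3 labelled Pd1cKO-Cx3 was left out.

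For the neighbouring phases of the cycle the values were as follows. Of 48 tested S phase genes, 36 had a positive log2 fold change, with a median of 0.37, and for 20 (41.7%) both libraries labelled Pd1cKO-Cx3 lay above both controls and for 3 (6.25%) below, beside 21.3% and 18.8% of the genes tested. None passed edgeR or DESeq2 over all genes, and edgeR had 7 higher and 0 lower at an unadjusted p under 0.05, beside 4.97% and 3.12%. E2f2, an activator of S phase genes, had 8.99 and 7.94 CPM in the Pd1fl/fl pair against 19.99 and 28.2 CPM in the pair labelled Pd1cKO-Cx3 (1.5 ± 0.32, SE, adjusted p by edgeR = 0.438). Cdt1, which licenses replication origins, had 14.8, 25.7, 38.9 and 41.8 CPM, and Rrm1, which makes deoxynucleotides, had 81.8, 114, 137 and 168 CPM. Rfc3, Pole2 and E2f1 had fold changes of -0.54, -0.59 and -0.33 on the log2 scale. The median was 0.19 when replicate 3 labelled Pd1cKO-Cx3 was left out.

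Of 23 tested genes of G1 and cell cycle arrest, 14 had a positive log2 fold change, with a median of 0.20, which was 0.03 without Pd1fl/fl replicate 1 and 0.04 when replicate 2 labelled Pd1cKO-Cx3 was left out. For 6 (26.1%) both libraries labelled Pd1cKO-Cx3 lay above both controls and for 4 (17.4%) below, near the 21.3% and 18.8% of the genes tested. None passed edgeR, which had 2 higher and 2 lower at an unadjusted p under 0.05, beside 4.97% and 3.12%. DESeq2 called Ccng1 higher, beside 1.19% of the genes tested that it called higher. Ccng1 and Cdkn1a, a cyclin and a kinase inhibitor that p53 induces, had 78.6, 103, 144 and 161 CPM and 99, 128, 153 and 199.9 CPM. The D-type cyclin gene Ccnd1 had 178, 178, 197 and 234 CPM. The antiproliferative genes Btg1 and Btg2 had fold changes of -0.42 and -0.44 on the log2 scale, and Cdk6 of -0.20.

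**Figure D4:**
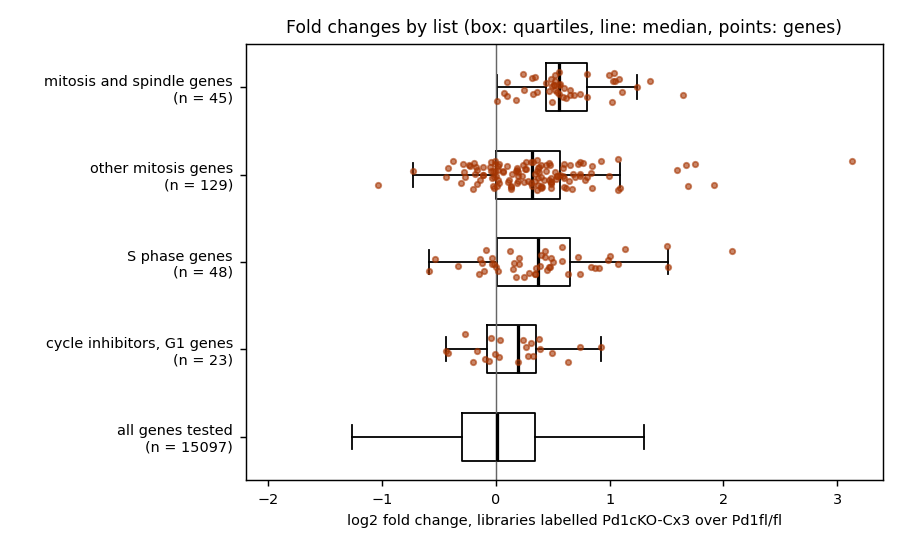
Log2 fold changes of the mitosis and spindle genes, 3 further cell cycle lists and all genes tested. Boxes span the quartiles, the line is the median, whiskers reach the farthest value within 1.5 box lengths, and each point is 1 gene of a list. The medians are 0.55, 0.32, 0.37, 0.20 and 0.01 from top to bottom.

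Several markers of other cell types were also higher in the pair labelled Pd1cKO-Cx3, and their values stand beside the result. Of 11 tested markers of border-associated macrophages, the macrophages of vessels and meninges, all 11 had a positive log2 fold change, with a median of 1.26. For 7 of them the groups did not overlap, 7 had an unadjusted p under 0.05 by edgeR, and DESeq2 called 4 (21.3%, 4.97% and 1.19% of the genes tested were higher by these measures). Lyve1 had 445 and 270 counts in the Pd1fl/fl pair against 831 and 1134, and Siglec1 had 296 and 423 against 837 and 1159. The sum over the 12 listed, which ran from 1255 to 1579 CPM, is mostly Stab1, with 10449 to 13364 counts per library, and Mrc1, with 4926 to 6374. Neither followed the groups as Lyve1 did, and all 12 were detected in every library.

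Of 12 tested markers of mural cells and fibroblasts, 6 were higher without overlap and 1 lower. At an unadjusted p under 0.05 by edgeR 6 were higher and 1 lower, and DESeq2 called 2 higher. Among those higher without overlap, Anpep and Notch3 had 0 counts in both controls. They passed the filter on low counts only through the pair labelled Pd1cKO-Cx3, which fixed their direction in advance. The sum of the mural and fibroblast list was 122 and 60.0 CPM in the Pd1fl/fl pair against 222 and 203 CPM, with 10 to 13 of 14 detected. Of 13 tested endothelial markers, 7 were higher without overlap, 2 had an unadjusted p under 0.05 by edgeR and DESeq2 called 1. Tie1, among those 7, had 0 and 6 counts against 162 and 64 and passed the filter only through the pair labelled Pd1cKO-Cx3. Endothelial markers summed to 121 and 85.1 CPM against 173 and 132 CPM, with 12 or 13 of 14 detected. Monocyte and neutrophil markers summed to 60.5 and 31.7 CPM against 106 and 108 CPM with 7 to 9 of 12 detected. Most of the sum in the pair labelled Pd1cKO-Cx3 was Plac8, with 268 and 257 counts in the Pd1fl/fl pair against 1014 and 1043. Of 7 tested monocyte and neutrophil markers, 3 had a positive and 4 a negative log2 fold change, with a median of -0.11. Without overlap 2 (28.6%) were higher and 1 (14.3%) lower, and DESeq2 called 1 higher. Of all genes tested, 21.3% were higher and 18.8% lower without overlap. By edgeR 4.97% were higher and 3.12% lower at an unadjusted p under 0.05, and DESeq2 called 1.19% higher.

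Lymphocyte markers summed to 63.1 to 87.6 CPM, of which Cd79b, with 752 to 1394 counts, made most. The B cell markers Cd79a and Ms4a1 had 0 to 2 counts in the Pd1fl/fl pair against 26 to 29 counts in the pair labelled Pd1cKO-Cx3. Cd4 had 0 and 0 against 56 and 17 counts. These 3 passed the filter on low counts only through the pair labelled Pd1cKO-Cx3, so their lack of overlap was fixed by the filter. It therefore says nothing about the marker list. For Cd79b, the remaining 1 of the 4 tested, the groups overlapped. Of the 12 markers, 1 and 3 were detected in the controls and 6 and 4 in the other libraries. The T cell markers Cd3e, Cd3d, Cd3g and Cd8a and the natural killer cell markers Nkg7 and Ncr1 were not listed in any table.

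The sums overlapped between the groups for the oligodendrocyte lineage, whose precursors divide (849 and 449.6 against 1385 and 519 CPM, 12 of 12 detected). Of its 12 tested markers, 3 (25%) were higher without overlap, beside 21.3% of the genes tested. Sums overlapped as well for astrocytes (357 to 577 CPM, 10 of 10 detected), for neurons and neural progenitors (49.7 to 74.6 CPM, 9 or 10 of 12 detected) and for erythroid cells (13.1 to 47.0 CPM, 5 of 8 detected). The neural progenitor markers Eomes and Neurod1 were not listed in any table, but others of that list were counted. Nes had 423 and 161 counts in the Pd1fl/fl pair against 42 and 105, and Sox11 had 81 and 59 against 167 and 123. Of 9 tested neuronal and progenitor markers, 7 had a positive log2 fold change, with a median of 0.44. Without overlap 3 (33.3%) were higher and 1 (11.1%) lower, beside 21.3% and 18.8% of the genes tested. The microglial sum had the reverse order of the libraries to the mitosis genes, but its 10 genes were unlike. Both libraries labelled Pd1cKO-Cx3 lay below both controls for 5, the groups overlapped for 4, and 1 was higher. P2ry12 had 236508 and 224734 counts in the Pd1fl/fl pair against 161288 and 165572, and Cx3cr1 fell as given above. Tmem119 had 134000 and 122249 counts against 118949 and 124149. The marker genes named here were chosen after their values were seen, and the part of these cell types in the difference was not tested.

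**Figure D5:**
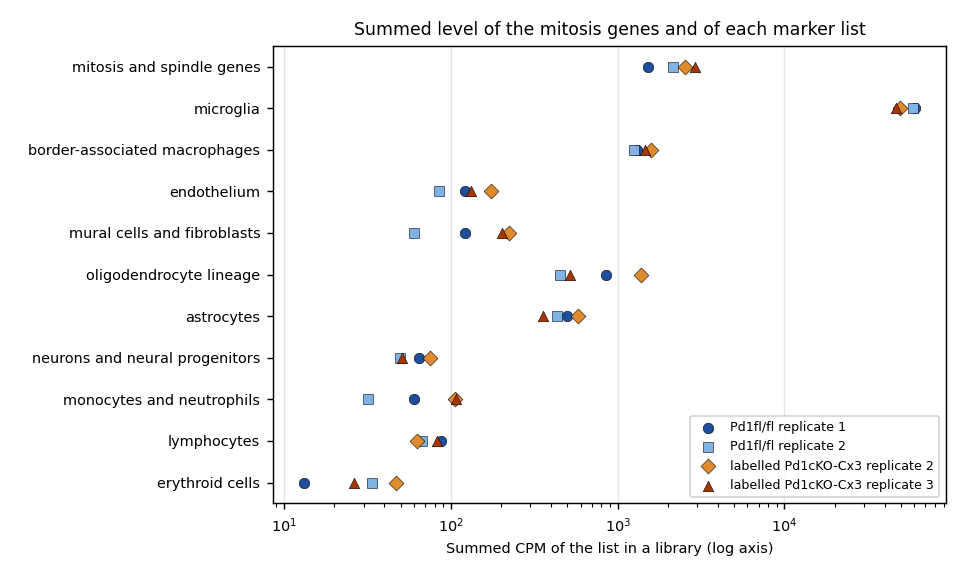
Summed CPM (log axis) of the 45 mitosis and spindle genes and of each cell type marker list, 1 point per library. The mitosis genes run from 1523 CPM in Pd1fl/fl replicate 1 to 2906 CPM in the library labelled Pd1cKO-Cx3 replicate 3, and the microglial list has the reverse order of the 4 libraries. Of the 10 microglial genes, 5 were lower without overlap between the groups.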

How the data were processed

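Each of the 4 deposited tables sets a single library labelled Pd1cKO-Cx3 beside a single Pd1fl/fl library, and each library appears in 2 of them with identical counts. The deposited counts are whole numbers of reads for each Ensembl gene. The deposited CPM columns scale them to 1000000 of the library total, with 0.5 in place of a count of 0, as the values show. The deposited ratio, log2 fold change and p-value columns compare the libraries of a table. According to the submitters' processing notes, mm9, HTSeq 0.6.0, TopHat2 2.0.12 and Bowtie2 2.2.3 were used, with no roles stated. The sources used here do not say whether counting used strand. Of 20276 gene identifiers found in GENCODE M21, 92.1% had the GRCm38 position of that annotation, so coordinates are read as GRCm38. Genes absent from both tables that hold a library were set to 0 there, which touched none of the 45 genes.

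CPM values printed are counts over the library total. The comparison used edgeR 4.0.16 (R 4.3.3, TMM factors, filterByExpr, quasi-likelihood test, Benjamini-Hochberg adjustment at 0.05 over 15097 genes), and the standard error is the log2 fold change over the root of the F statistic. DESeq2 1.42.0, other factors, other filters and leaving out each library were the alternatives. The scripts were checked on simulated data. Lengths are merged GENCODE M21 exons, and promoters are from RefSeq. The genes and lists were chosen with earlier results of these data known. Named in full are the 2 genes of smallest p and the 1 of highest CPM in each role, with 3 genes per direction of each further list. Values of the other genes were added after being seen.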

Additional observations from a re-analysis of the deposited data

How the results depend on the processing

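The 45 fold changes were recomputed under 10 alternatives, which gave 450 values, of which 440 kept their sign. Of the members, DESeq2 called Kif20b and edgeR called none under any alternative. Genes called over all genes numbered 6, and 32 with no filter on low counts, 32 with at least 5 CPM in 2 libraries, 234 with DESeq2 and 4 to 21 when 1 library was left out. Members with an unadjusted p under 0.05 numbered 14, 10 with upper-quartile factors and 2 to 25 when 1 library was left out. Members with no overlap between groups numbered 30, 28 with upper-quartile factors and 31 to 42 when 1 library was left out, where fewer libraries have to be apart. With 1 library left out, the median of the G1 and arrest genes ran from 0.03 to 0.23. In the same settings Kif2c ran from -0.38 to 0.47, Kif11 from -0.27 to 1.05, Kif20a from -0.25 to 0.39, Hmmr from -0.17 to 0.22, Smc2 from -0.07 to 0.89 and Ncaph from -0.09 to 0.24. Hmmr was at -0.01 with upper-quartile factors and at -0.0027 with at least 5 CPM in 2 libraries. The cause of these changes was not tested. A group left with 1 library is assumed to vary like the other group. No paired analysis was possible because the groups share only 1 replicate number. Counts of the 45 genes per library ran from 42 to 2844, and the lower ones carry more counting error.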
